A study of Homo sapiens with 6 samples.

Results

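CD201-only cells are the middle population of a sort of human BJ fibroblasts on the way to induced pluripotent stem cells: they carried CD201 on the surface but not CD13. Genes at a peak or a trough in these cells were chosen from the 12210 genes whose values averaged 1 FPKM or more over 6 libraries (fragments per kilobase of transcript, scaled to the mapped fragments of the library, so a level per length). A gene belonged to the peak side where both CD201-only values lay above the other 4, and to the trough side where both lay below them. In all, 3862 genes met this rule, 2043 of them above (16.7% of the genes) and 1819 below (14.9%). The double-negative libraries lay above the other groups for 3607 genes and below for 1952, and the double-positive libraries for 2838 and 4846, so the CD201-only cells were an extreme at fewer genes than either other group, above and below.

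BJ is an established line of human foreskin fibroblasts. All groups carried the same 2 lentiviral constructs, labelled O2S and K2M, which together supply POU5F1 (OCT4), SOX2, KLF4 and MYC, and all were collected at day 8. The cells spent the first 5 days in serum, were replated on Matrigel at day 4 and were kept in embryonic stem cell medium from day 6. They were sorted by antibody staining into double-negative (neither CD13 nor CD201), CD201-only and double-positive cells, with 2 poly-T selected, stranded RNA libraries from each. The labels do not say whether the paired libraries came from separate cultures, so p-values measure only the spread between these samples.

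CD13 is aminopeptidase N, encoded by ANPEP, and CD201 is the endothelial protein C receptor, encoded by PROCR. Both are present on the surface of fibroblasts. Reprogramming factors shut down the mesenchymal program of a fibroblast, including its collagens and contractile proteins, and cells take on epithelial traits such as keratins and tight junctions before the pluripotency network is active. A marker that is lost in steps lets cells at different points be separated, and a gene that peaks or dips in the middle population does not follow a straight line between the outer ones.

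The quantity tested was the difference in log2(FPKM + 1), fitted with limma over all 3 groups. A peak was called where CD201-only cells were higher than both other groups, taking the larger of the 2 one-sided p-values, adjusted by Benjamini-Hochberg over all 12210 genes and under 0.05, together with the rule. A trough was called likewise. The distance from the nearer of the other groups is called the smaller difference below, and a value of 1 on this scale is about 2-fold for genes well above 1 FPKM, while the change of low genes is understated. By this test 634 genes were called at a peak (5.19% of the genes tested) and 579 at a trough (4.74%), which are 31.0% and 31.8% of the genes that met the rule. The rule and the test read the same values, so these counts describe the size of the set. Taken one at a time, CD201-only cells were higher than double-negative cells at 16.5% of the genes and lower at 21.5%, and higher than double-positive cells at 35.8% and lower at 22.9% (limma, two-sided, adjusted p under 0.05). Both comparisons use the same CD201-only libraries. The balance depended on the scaling: after median-ratio rescaling 2430 genes were higher and 2163 lower than in double-negative cells (2012 and 2620 as deposited), and 3228 higher and 3481 lower than in double-positive cells (4370 and 2795 as deposited). Quantile normalization gave 2180 higher and 2199 lower than in double-negative cells. Against double-positive cells it did not turn the balance (4226 higher and 2901 lower).

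The libraries were broadly similar in depth, and double-positive replicates spread the most. Above 100 FPKM the median coefficient of variation was 1.97% in double-positive, 1.38% in CD201-only and 0.967% in double-negative cells. Summed FPKM ran from 489152 to 521352, genes at 1 FPKM or more from 11983 to 12168, and relative depth, read from the steps between low values, from 0.937 to 1.27 of the first double-negative library; depth in reads was not given in the sources used here. Libraries of the same group correlated at 0.9919 or more, and libraries of different groups at 0.9807 or less. The 2 genes sorted on are a check and no finding: PROCR was at 45.8 and 49.1 FPKM in CD201-only, 16.6 and 18 in double-negative and 51.3 and 52.5 in double-positive libraries. ANPEP was at 29.1 and 28.7 FPKM in CD201-only, 35.7 and 36.2 in double-negative and 158 and 153 in double-positive libraries. ANPEP thus met the trough test by a small step, -0.31 from the double-negative level on the log2 scale. The transcripts of the 4 factors were called at no peak or trough, and vector and cellular transcripts were not told apart here. Fibroblast genes were present in every group (COL1A1 averaged 244 FPKM in CD201-only, 305 in double-negative and 1690 in double-positive cells). In bulk libraries fewer cells of a type and less RNA per cell cannot be told apart.

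**Figure D1:**
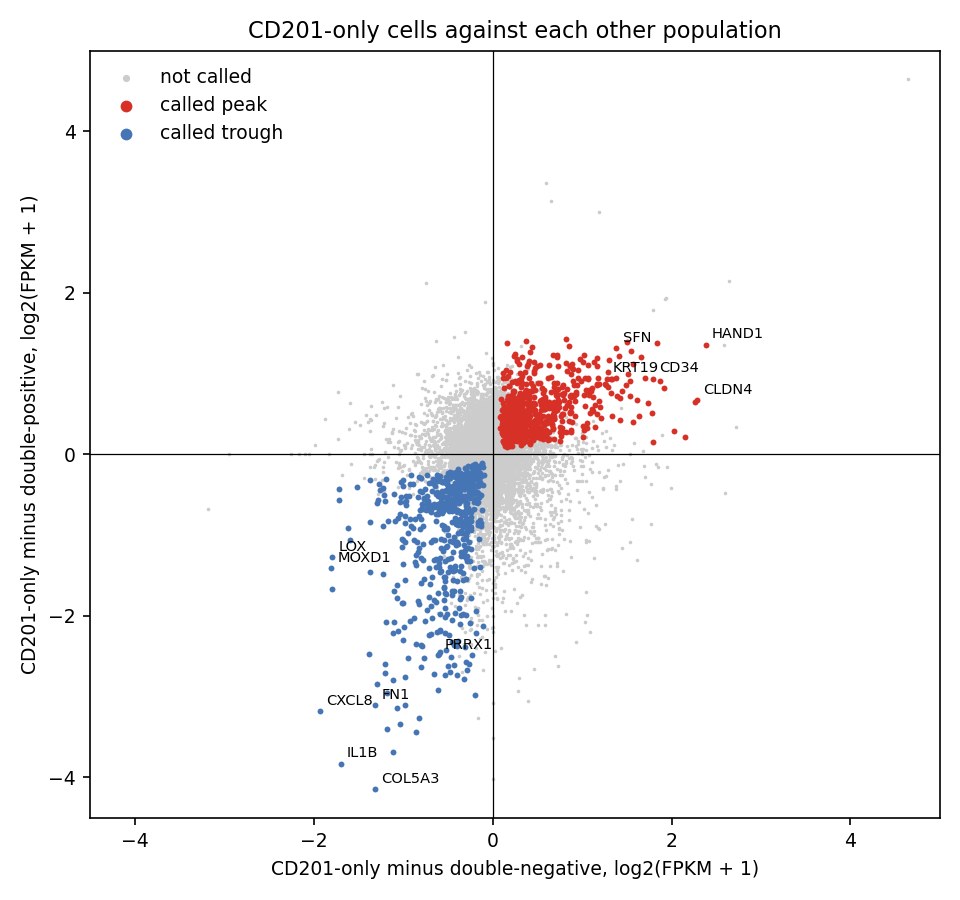
Difference of CD201-only from double-negative cells (x axis) against its difference from double-positive cells (y axis), both on the log2(FPKM + 1) scale, with 1 point for each of 12210 genes. The 634 called peak genes lie at the upper right and the 579 called trough genes in the lower left, where CXCL8 and IL1B lie farthest from the nearer group. Both axes use the same CD201-only libraries.

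Most members moved modestly. The median smaller difference was 0.301 at the peaks and 0.386 at the troughs, and the largest were 1.4 (UNC13D) and 1.93 (CXCL8). At least 2-fold separation from the nearer group was reached by 16 peak genes (0.131% of the genes) and 30 trough genes (0.246%), and at least 1.5-fold by 121 (0.991%) and 136 (1.11%). At 416 of the 634 peak genes (65.6%) the CD201-only cells stood off from the nearer group by more than the outer groups stood apart from each other, and so did 314 of the 579 trough genes (54.2%). Among the troughs the double-positive cells were the higher outer group at 413 genes and the double-negative cells at 166, while among the peaks the double-negative cells were the higher at 374 and the double-positive at 260. Members just inside and outside the rule differed by almost nothing: ETS2 was above by 0.000155 on the log2 scale and POLR2I by 0.000252, while LRRFIP1 and SAPCD2 just missed. On the lower side HIST1H2BD was inside and ARF1 missed. SNHG25 missed by a tie at 0, since only double-positive replicate 2 had a value (129.6 FPKM).

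HAND1, a basic helix-loop-helix transcription factor of trophoblast, amnion and lateral mesoderm, had the largest separation from the double-negative cells among the 3 markers of these cells. It was at 93.9 and 92.8 FPKM in CD201-only, 17.7 and 16.5 in double-negative and 36.7 and 34.7 in double-positive libraries. No value of one group reached another's, and the level was 5.45 times the double-negative and 2.61 times the double-positive one (differences of 2.38 and 1.36, SE 0.0447, adjusted p = 1.13e-05). SFN, the epithelial 14-3-3 protein sigma and a known p53 target, was at 57.9 and 56.6 FPKM in CD201-only, 20.8 and 21.9 in double-negative and 22.9 and 22 in double-positive libraries. The outer groups lay within 0.07 of each other on the log2 scale, and CD201-only cells stood 1.38 and 1.31 above them (SE 0.040, adjusted p = 1.13e-05). CRIP1, a small cysteine-rich protein with a LIM domain, was at 218 and 224 FPKM in CD201-only, 100.4 and 100.2 in double-negative and 105 and 93.7 in double-positive libraries, again with nearly equal outer groups and a separation of 1.13 and 1.15 (SE 0.0497, adjusted p = 2.61e-05). SFN and CRIP1 were single-step peaks, whereas HAND1 climbed from double-negative through double-positive to CD201-only.

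The other tested genes of the SFN and CRIP1 families were not called. None of the other 6 14-3-3 genes was called at a peak or trough, and the most abundant of them, YWHAE, was at a mean of 267 FPKM in CD201-only, 283 in double-negative and 198 in double-positive cells. CRIP2 was at a mean of 33.8 FPKM in CD201-only, 25.9 in double-negative and 34.1 in double-positive cells, with CD201-only and double-positive cells nearly level. CSRP1 and CSRP2, which carry the same kind of LIM domain, were not called either.

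**Figure D2:**
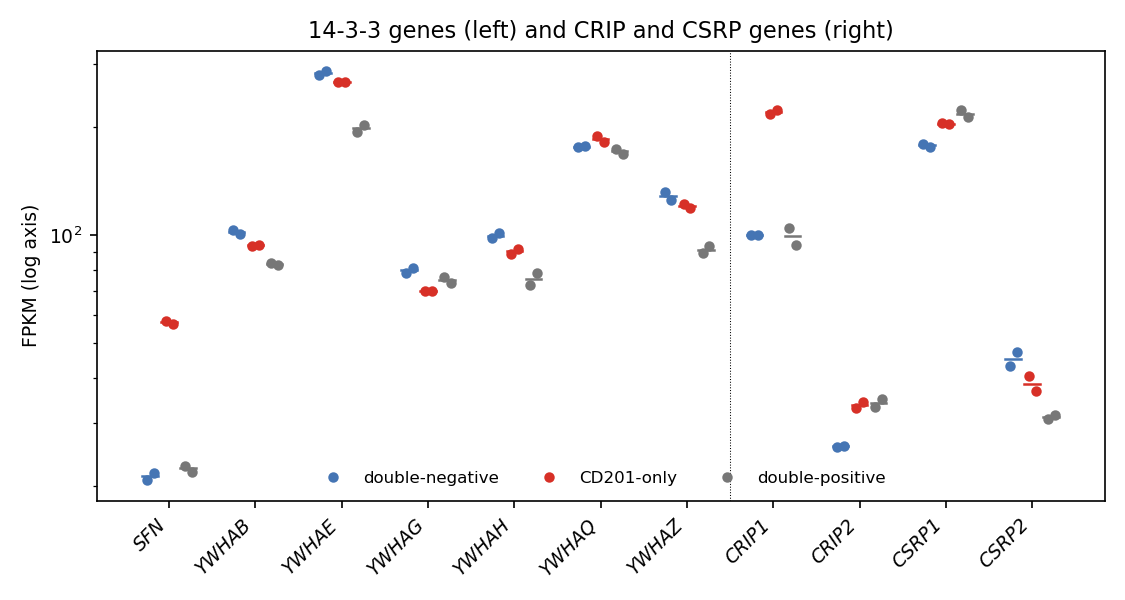
FPKM on a log axis for SFN and the other 14-3-3 genes (left) and for the CRIP and CSRP genes (right), with 1 point for each library and short bars at the group means. SFN and CRIP1 are higher in CD201-only libraries than in both other groups, and the other members shown were not called.

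The 15 peak genes with the largest smaller differences (among those at 5 FPKM or more in CD201-only cells) had varied functions. UNC13D, which primes granules for release, was at 12.2 and 11.6 FPKM in CD201-only, 3.48 and 3.64 in double-negative and 3.81 and 4.0 in double-positive libraries. TH, tyrosine hydroxylase of catecholamine synthesis, was at 10.1 and 9.9 FPKM in CD201-only, 1.98 and 2.2 in double-negative and 2.91 and 3.6 in double-positive libraries. MUC4, a membrane mucin of epithelia, was at 6.45 and 6.52 FPKM in CD201-only, 1.54 and 1.59 in double-negative and 2.11 and 2.02 in double-positive libraries. In all 3 the CD201-only libraries were more than 2-fold above the nearer group. GPBAR1, a bile acid receptor, was at 19.3 and 18.4 FPKM in CD201-only, 5.33 and 5.29 in double-negative and 8.28 and 6.9 in double-positive libraries. MYO1G, an unconventional myosin, was at 12.3 and 12.1 FPKM in CD201-only, 4.25 and 4.48 in double-negative and 4.88 and 4.86 in double-positive libraries. ANKRD1, a target of the YAP and TEAD factors, was at 12 and 11.1 FPKM in CD201-only, 3.79 and 3.64 in double-negative and 4.11 and 4.71 in double-positive libraries. The others, besides the 3 markers, were TNS4, a focal adhesion protein lacking the actin-binding part of other tensins, LGALS12, CDK18, MDFI, an inhibitor of myogenic factors, LINP1, a long noncoding RNA of DNA repair, and GAST, the gastrin precursor. GAST was at 5.24 and 6.37 FPKM in CD201-only, 2.39 and 1.69 in double-negative and 1.46 and 2.55 in double-positive libraries and lost its call in 3 alternatives (limma adjusted p = 0.0781 without double-negative replicate 2, 0.0707 without CD201-only replicate 2 and 0.0615 without the filter on low values).

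**Figure D3:**
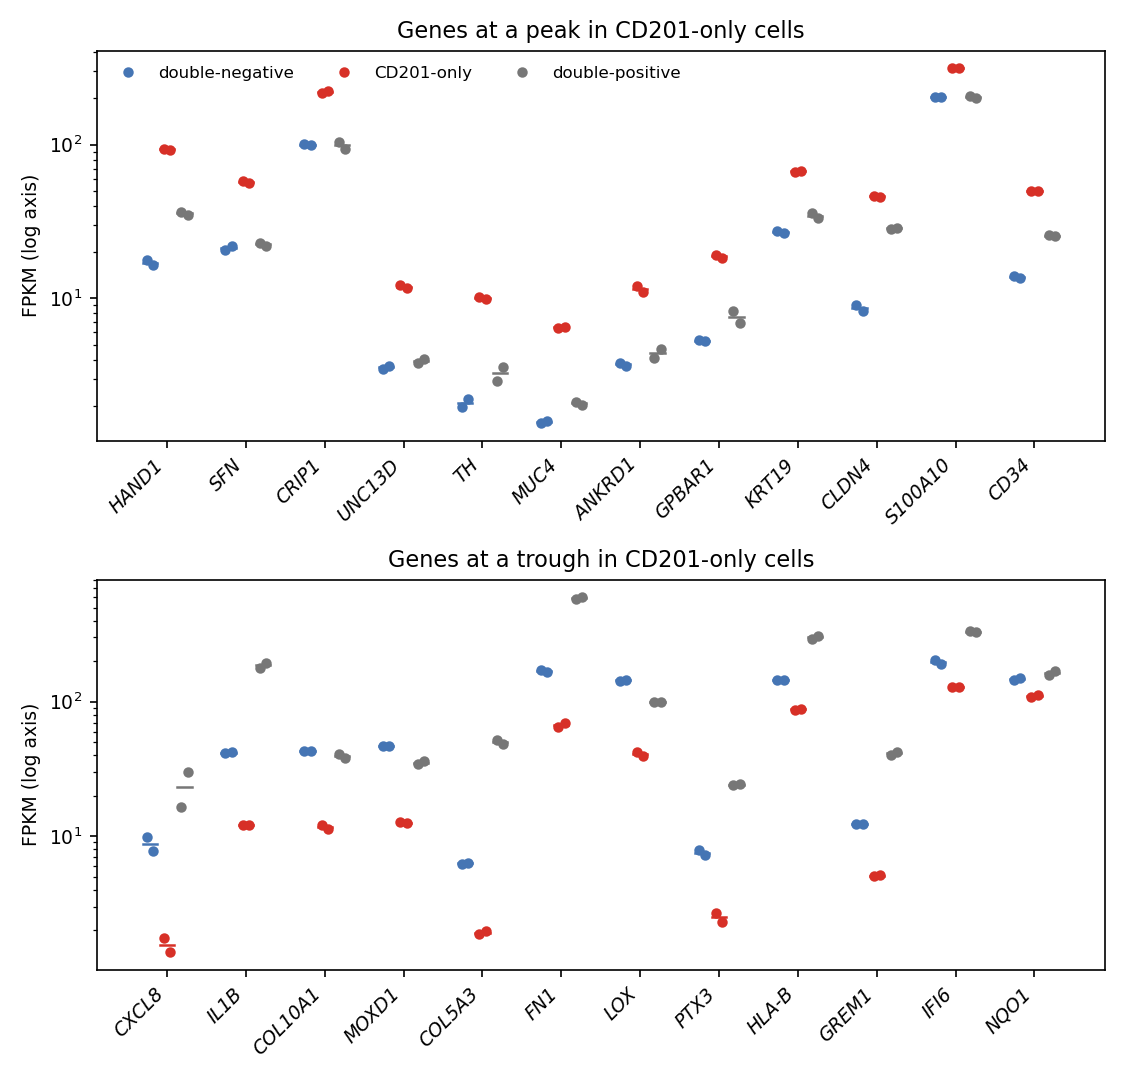
FPKM in each library on a log axis for 12 called peak genes (upper panel) and 12 called trough genes (lower panel), with 1 point for each library, coloured by group, and short bars at the means. HAND1 and SFN have both CD201-only points above the other 4, and IL1B and COL10A1 have them below.

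Epithelial genes were frequent at the peaks. Of the 24 tested genes of simple epithelium and junctions, 8 were called at a peak and none at a trough, against 5.19% and 4.74% of all genes. These shares are the comparison for each list count below. The median difference over the list was 0.30 from double-negative and 0.73 from double-positive cells, beside medians of -0.04 and 0.08 over all genes. KRT19, a keratin of simple epithelia, was at 66.9 and 67.4 FPKM in CD201-only, 27.5 and 26.8 in double-negative and 35.9 and 33.3 in double-positive libraries. CLDN4, a tight junction claudin, was at 46.7 and 45.7 FPKM in CD201-only, 9.11 and 8.22 in double-negative and 28.2 and 28.9 in double-positive libraries. ELF3, an epithelial ETS factor, was at 11.2 and 10.8 FPKM in CD201-only, 4.43 and 4.32 in double-negative and 5.77 and 5.46 in double-positive libraries. The outer groups of KRT19 and ELF3 lay near each other, whereas CLDN4 was higher in double-positive than in double-negative cells. RAB25, a GTPase of epithelial recycling, was lower, at 1.65 and 2.4 FPKM in CD201-only, 0.499 and 0.659 in double-negative and 0.704 and 0.863 in double-positive libraries, and KRT8, KRT18 and JUP were among the other called members. EPCAM and CDH1, epithelial adhesion genes, were not called, at 2.57 and 3.03 FPKM in CD201-only, 3.51 and 2.5 in double-negative and 1.57 and 1.11 in double-positive cells. The keratinocyte list had 2 peaks among 10 tested, KRT5 and COL17A1, which were chosen after their values were seen. Its summed FPKM was 151 in CD201-only, 68.7 in double-negative and 199 in double-positive cells. KRT14 was highest in double-positive cells at 29.7 FPKM, TP63 was at most at 0.0405 FPKM and KRT1 was at 0 in 5 libraries. Their part in the result was not tested.

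Genes of trophoblast and amnion, the extraembryonic tissues in which HAND1 acts, gave 4 peaks and 1 trough of 13 tested. Besides HAND1 the peaks were PLAC8, GATA2 and GABRP. PLAC8 was at 33.6 and 31.5 FPKM in CD201-only, 7.71 and 8.11 in double-negative and 17.8 and 18.2 in double-positive libraries. GATA2 was at 29.7 and 29.9 FPKM in CD201-only, 23.8 and 24.9 in double-negative and 24.4 and 23.6 in double-positive libraries. GABRP, a GABA receptor subunit, was at 3.71 and 3.41 FPKM in CD201-only, 1.64 and 1.87 in double-negative and 0.934 and 1.36 in double-positive libraries. PLAC8 was the steeper of the 3, and GATA2 rose by only 0.28 and 0.30. The trough was IGFBP3. Defining trophoblast genes were near 0: CDX2 reached at most 0.0619 FPKM, ELF5 was at 0 in 5 libraries and CGA at 0 in both CD201-only libraries. The sum over the list was 331 FPKM in CD201-only, 252.2 in double-negative and 283 in double-positive cells.

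S100 and annexin genes, which bind calcium and membranes, gave 8 peaks and 1 trough of 19 tested, with medians of 0.36 and 0.10. S100A4, long known from fibroblasts, was at 2568 and 2563 FPKM in CD201-only, 1269 and 1271 in double-negative and 2237 and 2185 in double-positive libraries. The groups did not overlap, but it rose by only 0.21 over double-positive cells. Under quantile normalization S100A4 lost its call, with a smaller difference of 0, and the list's peak count was 5. S100A10, the partner of annexin A2, was at 314 and 314 FPKM in CD201-only, 205 and 205 in double-negative and 207 and 203 in double-positive libraries. ANXA4 was at 183 and 180 FPKM in CD201-only, 141 and 141 in double-negative and 132 and 133 in double-positive libraries. S100A14, an epithelial member, was at 10.9 and 9.78 FPKM in CD201-only, 5.54 and 4.71 in double-negative and 3.65 and 4.79 in double-positive libraries. S100A10 stood 0.61 above both other groups. ANXA6 was the trough.

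Genes of the p53 response and the CDK inhibitors gave 7 peaks and no trough of 34 tested. SFN led the list by far. DDB2, a DNA damage sensor, was at 115 and 116 FPKM in CD201-only, 86.1 and 85.4 in double-negative and 90.8 and 90.4 in double-positive libraries. BTG2, which restrains proliferation, was at 61.9 and 62.7 FPKM in CD201-only, 47.5 and 49.4 in double-negative and 50 and 49.7 in double-positive libraries. BBC3 (PUMA), a cell death effector, was at 58.9 and 59.2 FPKM in CD201-only, 47.6 and 44.6 in double-negative and 48.3 and 43.3 in double-positive libraries. The 3 rose by 0.32 to 0.42, against 1.31 and 1.38 for SFN. BAX, FDXR and AEN were the other called members, and CDKN1A and MDM2 were not called. The count was 5 to 7 with 1 library left out.

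**Figure D4:**
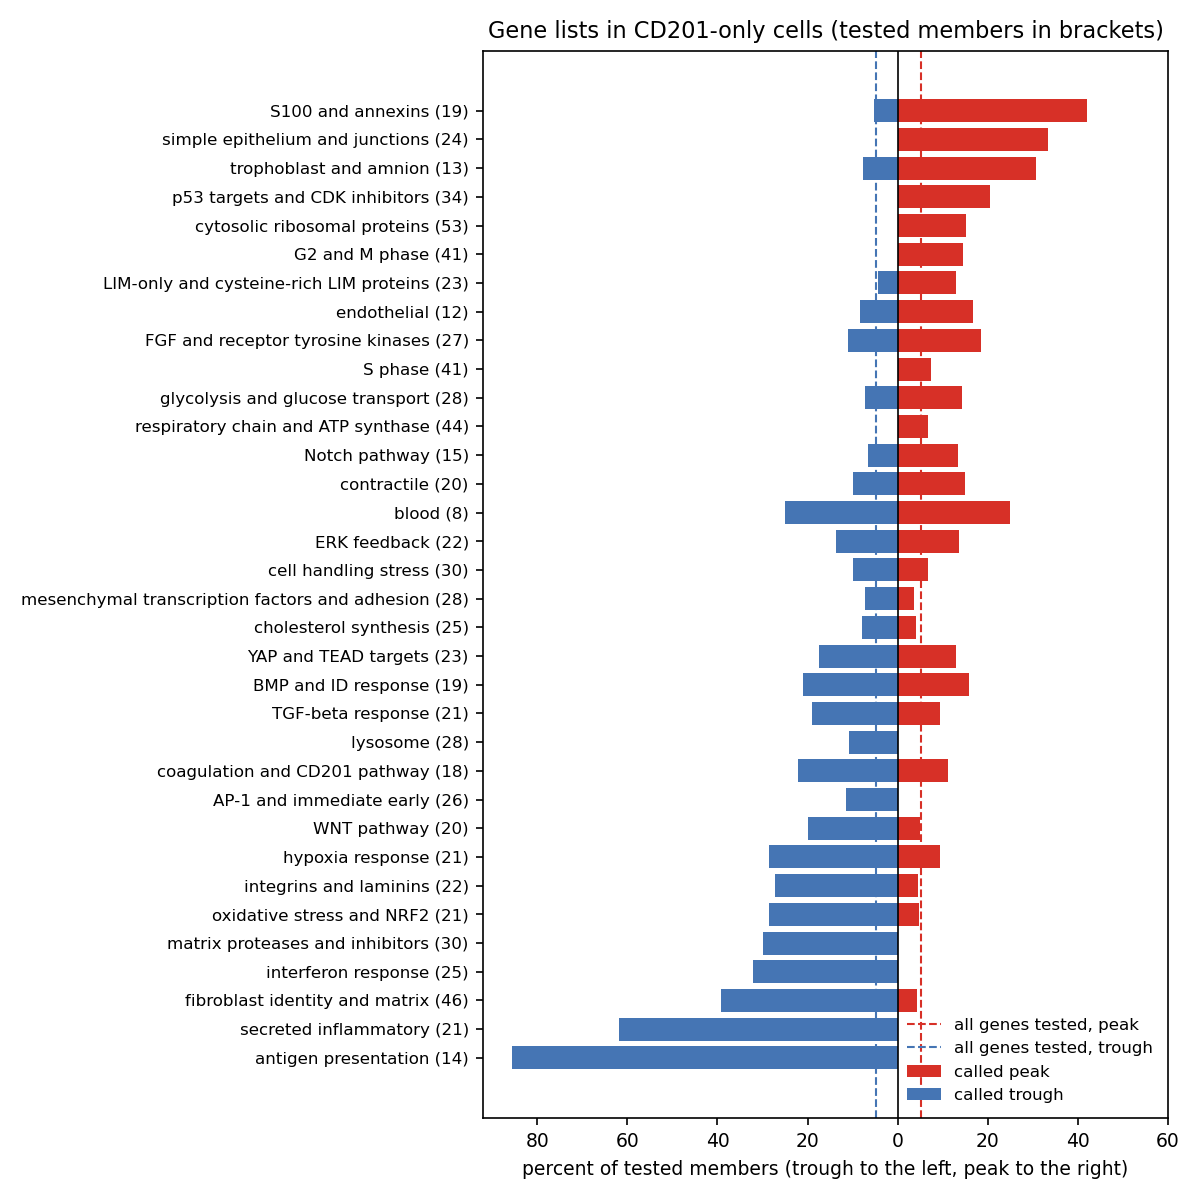
Share of the tested genes of each of the 34 lists with at least 3 called genes that were called at a peak (to the right) or a trough (to the left), in percent, with dashed lines at the shares over all genes, 5.19% and 4.74%. Antigen presentation has 12 of 14 genes at a trough and the epithelial list has 8 of 24 at a peak and none at a trough.

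The 2 deepest troughs, CXCL8 and IL1B, were secreted inflammatory genes. Of 21 tested, 13 were called at a trough and none at a peak, with medians of -0.80 from double-negative and -1.85 from double-positive cells. IL1B, interleukin 1 beta, was at 12.1 and 12.2 FPKM in CD201-only, 41.4 and 42.1 in double-negative and 177 and 195 in double-positive libraries. CXCL8, a neutrophil chemokine, was at 1.76 and 1.38 FPKM in CD201-only, 9.88 and 7.81 in double-negative and 16.4 and 30 in double-positive libraries, its double-positive libraries differing most from each other. CXCL6 was at 1.55 and 1.69 FPKM in CD201-only, 4.45 and 5.71 in double-negative and 14.9 and 14.8 in double-positive libraries. In each of the 3 the order was CD201-only lowest and double-positive highest, and IL1B differed by -1.70 from double-negative and -3.83 from double-positive cells (SE 0.048, adjusted p = 3.14e-06). IL6, CXCL2, CXCL3, CXCL5, CCL2, CSF2, PTGS2 and ICAM1 were called troughs as well. The interstitial collagenase MMP1 was at 3.24 and 2.56 FPKM in CD201-only, 7.71 and 6.35 in double-negative and 34.9 and 42 in double-positive libraries. Stromelysin, MMP3, was at 0.573 and 0.605 FPKM in CD201-only, 2.48 and 2.4 in double-negative and 5.87 and 6.82 in double-positive libraries. At a mean of at least 5 FPKM the count was 7.

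Antigen presentation showed the highest share of troughs of any list: 12 of 14 tested genes, and none at a peak, with medians of -0.33 and -0.94. HLA-B, a class I heavy chain, was at 87.2 and 88.4 FPKM in CD201-only, 144 and 145 in double-negative and 293 and 307 in double-positive libraries. B2M, the light chain, was at 136 and 172 FPKM in CD201-only, 234 and 241 in double-negative and 236 and 312 in double-positive libraries, with replicates apart in both CD201-only and double-positive cells. PSMB9, an immunoproteasome subunit, was at 2.1 and 2.12 FPKM in CD201-only, 4.15 and 3.35 in double-negative and 15.6 and 17.1 in double-positive libraries. HLA-F was at 0.816 and 0.763 FPKM in CD201-only, 1.98 and 1.45 in double-negative and 7.18 and 7.12 in double-positive libraries. TAP1, TAPBP, PSMB8, NLRC5, ERAP1, HLA-C and HLA-E were among the other called members. HLA genes are alike in sequence, so reads may have been shared among them, and TAP2 and PSMB10 were the 2 that were not called. The count was 7 without double-negative replicate 1, 8 without double-negative replicate 2, 7 without CD201-only replicate 1 and 8 without CD201-only replicate 2, and 7 without the expression filter. B2M lost its call without either double-negative library, without CD201-only replicate 1, without the filter, and with no trend or a robust trend in the spread.

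Interferon response genes followed at 8 troughs of 25 tested and none at a peak (medians -0.18 and -0.60). IFI6 was at 129.5 and 129 FPKM in CD201-only, 203 and 192 in double-negative and 335 and 327 in double-positive libraries. BST2 (tetherin) was at 1.97 and 1.7 FPKM in CD201-only, 3.24 and 3.24 in double-negative and 5.44 and 5.21 in double-positive libraries. IFIH1, a sensor of double-stranded RNA, was at 1.45 and 1.61 FPKM in CD201-only, 4.43 and 5.21 in double-negative and 2.64 and 2.89 in double-positive libraries, and for this gene the double-negative cells were highest. ISG15, OAS2, IFITM1 and DDX58 were among the other called troughs. The count was 4 without the filter, 4 without CD201-only replicate 1, and 5 without either double-negative library, without CD201-only replicate 2 or at a mean of 5 FPKM.

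Promoters of these 2 groups of genes held a shared letter pattern more often than other promoters. RefSeq's promoter table (build GRCh38.p14, 250 bases before each start) covered 9439 of the 12210 genes, 470 peak and 440 trough genes. A pattern of 10 letters that interferon regulatory factors bind, searched on both strands, stood in 2.2% of all promoters, 2.55% of peak and 5.68% of trough promoters (25 genes). Of the called antigen presentation and interferon genes with a promoter in the table, 9 of 14 held it, as did 9 of 16 not called in the same lists. It is shown in capitals here for 3 trough genes, with the start site 1 base after the right end; overlapping copies are capitalised together.
B2M: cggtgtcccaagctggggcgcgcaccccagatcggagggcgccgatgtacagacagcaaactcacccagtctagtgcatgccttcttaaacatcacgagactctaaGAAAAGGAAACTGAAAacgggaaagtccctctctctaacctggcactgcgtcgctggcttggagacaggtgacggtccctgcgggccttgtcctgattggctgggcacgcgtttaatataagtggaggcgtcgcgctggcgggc
BST2: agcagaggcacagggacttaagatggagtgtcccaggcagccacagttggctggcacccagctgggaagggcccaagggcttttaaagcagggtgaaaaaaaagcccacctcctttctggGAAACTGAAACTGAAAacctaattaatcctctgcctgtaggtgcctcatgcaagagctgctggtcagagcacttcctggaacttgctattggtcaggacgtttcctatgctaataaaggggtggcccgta
IFI6: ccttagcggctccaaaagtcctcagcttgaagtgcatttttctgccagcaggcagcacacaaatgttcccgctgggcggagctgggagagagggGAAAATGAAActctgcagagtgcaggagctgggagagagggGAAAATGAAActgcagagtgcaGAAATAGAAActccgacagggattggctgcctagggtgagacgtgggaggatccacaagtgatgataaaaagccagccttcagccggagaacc
B2M holds it at chr15:44711267-44711516 (+ strand) at -144 and -138 from the start, BST2 at chr19:17405631-17405880 (- strand) at -130 and -124, and IFI6 at chr1:27672193-27672442 (- strand) at -156, -115 and -93. A match is a description and shows no binding.

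By count of genes, matrix genes made up the widest trough group. Of the 46 fibroblast and matrix genes tested, 18 were at a trough and 2 at a peak (medians -0.10 and -1.40), and 9 of 30 matrix proteases and inhibitors were at a trough with none at a peak. The sums were not at a trough. Summed FPKM of the fibroblast list was 8611 in CD201-only, 8199 in double-negative and 18150 in double-positive cells. S100A4 alone averaged 2566, 1270 and 2211 of these. The proteases summed to 2025, 1761 and 4588 in the same order. FN1, fibronectin, was at 65.2 and 69.2 FPKM in CD201-only, 171 and 167 in double-negative and 575 and 595 in double-positive libraries. COL10A1, the type X collagen of cartilage, was at 12.1 and 11.3 FPKM in CD201-only, 43.2 and 43.4 in double-negative and 40.5 and 38.2 in double-positive libraries. LOX, which cross-links collagen, was at 42.2 and 39.6 FPKM in CD201-only, 142 and 146 in double-negative and 100.3 and 99.7 in double-positive libraries. FN1 was far higher in double-positive cells, whereas COL10A1 and LOX were highest in double-negative cells, so the CD201-only cells were the lowest point of both shapes. COL5A3, a minor fibrillar collagen, was at 1.87 and 1.97 FPKM in CD201-only, 6.26 and 6.32 in double-negative and 52.3 and 48.8 in double-positive libraries. LOXL2 was at 34.3 and 34.5 FPKM in CD201-only, 72.7 and 73.7 in double-negative and 314 and 306 in double-positive libraries. Of the 2 peaks, MFAP5, a microfibril protein, was at 58.5 and 56.8 FPKM in CD201-only, 24.8 and 24.6 in double-negative and 35.5 and 36.4 in double-positive libraries, and S100A4 is given above. COL1A1 and COL1A2, the chains of type I collagen, were called at a trough too, but most of their range lay between double-positive cells (1690 and 1870 FPKM) and both other groups (305 and 460 in double-negative, 244 and 427 in CD201-only cells). The trough count was 13 to 17 with 1 library left out, and that of the proteases 5 to 7, the lowest without double-negative replicate 2.

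Other trough genes among the 15 with the largest smaller differences had varied functions. MOXD1, a monooxygenase-like protein, was at 12.7 and 12.6 FPKM in CD201-only, 46.7 and 46.9 in double-negative and 34.2 and 36.2 in double-positive libraries. KCNK2, a background potassium channel, was at 1.26 and 1.47 FPKM in CD201-only, 5.38 and 4.87 in double-negative and 4.96 and 6.0 in double-positive libraries. PTX3, a pentraxin of innate immunity, was at 2.68 and 2.33 FPKM in CD201-only, 7.88 and 7.27 in double-negative and 23.9 and 24.4 in double-positive libraries. CEMIP, which acts on hyaluronan, was at 1.91 and 1.88 FPKM in CD201-only, 5.62 and 5.69 in double-negative and 18.4 and 17.5 in double-positive libraries. PAPSS2, which makes the donor for sulfation, and MICAL2, which oxidises actin, were also among them. GREM1, a secreted BMP antagonist, was at 5.07 and 5.14 FPKM in CD201-only, 12.3 and 12.3 in double-negative and 40 and 42.5 in double-positive libraries. The double-positive cells were highest in PTX3, CEMIP and GREM1, and the double-negative cells in MOXD1.

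**Figure D5:**
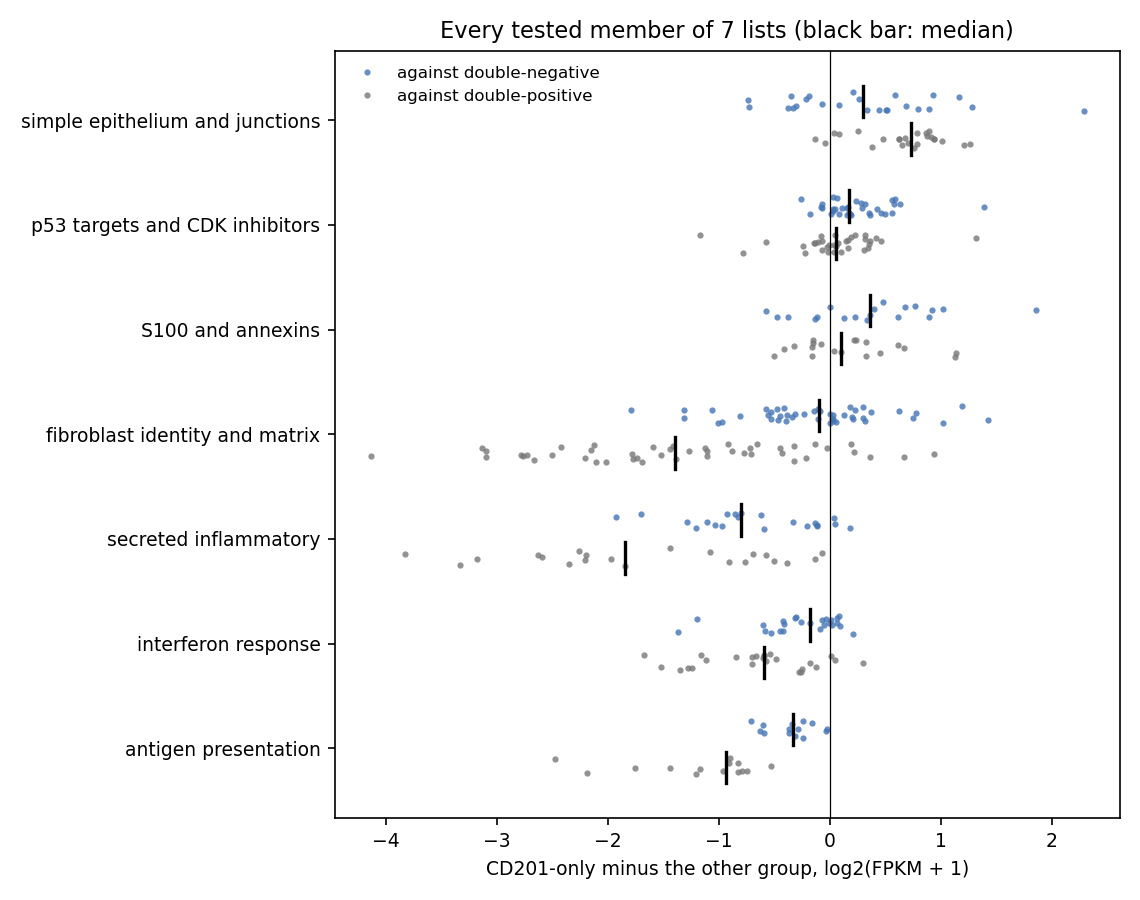
Difference of CD201-only from double-negative (blue) and from double-positive cells (grey), on the log2(FPKM + 1) scale, for each tested gene of the 7 lists named at the left, with black bars at the medians. The medians of antigen presentation are -0.33 and -0.94 and those of the epithelial list 0.30 and 0.73.

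Signalling pathways gave peaks and troughs side by side (over all genes 5.19% were at a peak and 4.74% at a trough). In the BMP list, 3 of 19 tested genes were at a peak and 4 at a trough. BMP4, a ligand, was at 11.1 and 11.2 FPKM in CD201-only, 3.61 and 4.03 in double-negative and 8.32 and 7.18 in double-positive libraries. BMP4 lost its call without CD201-only replicate 1 (smaller difference 0.484) and without CD201-only replicate 2 (0.475). NOG, which blocks such ligands, was at 12.9 and 12.2 FPKM in CD201-only, 5.67 and 6.4 in double-negative and 6.34 and 6.54 in double-positive libraries. HEY1, a transcriptional repressor, was at 30.1 and 29.6 FPKM in CD201-only, 7.79 and 7.13 in double-negative and 14.5 and 16.4 in double-positive libraries. MSX1, SMAD6, TBX2 and GREM1 were the troughs, of which 2 were called without the filter. In the TGF-beta list, TGFBI and BAMBI were peaks, TGFBI at 294 and 303 FPKM in CD201-only, 111 and 109.7 in double-negative and 223 and 220.1 in double-positive libraries, and 4 genes were at a trough, among them CTGF, LTBP1 and LTBP2, of 21 tested. Of 23 YAP and TEAD targets, ANKRD1, F3 and PTPN14 were at a peak and CTGF, CYR61, LATS2 and IGFBP3 at a trough. The peak count was 1 without any 1 of the 4 double-negative and CD201-only libraries, where F3 and PTPN14 lost their calls, and LATS2 lost its call in 10 of 15 alternatives. CTGF was at 116 and 116 FPKM in CD201-only, 168 and 169.5 in double-negative and 188 and 186 in double-positive libraries, opposite to ANKRD1 in the same list. WNT7A, a ligand, was at 2.62 and 2.35 FPKM in CD201-only, 0.24 and 0.161 in double-negative and 0.777 and 0.94 in double-positive libraries. It was the single WNT peak of 20 tested, near the share over all genes, while DKK1, DKK3, WNT5B and AXIN2 were troughs. In the receptor tyrosine kinase list, 5 of 27 were at a peak, with FGFRL1 at 56.7 and 58.1 FPKM in CD201-only, 35.5 and 36.3 in double-negative and 37.1 and 36.5 in double-positive libraries and EPHB3 and EPHB4, receptors of ephrins, among them, and FGFR1, PDGFRA and DDR2 were at a trough. That trough count was 0 without either double-negative library or CD201-only replicate 1, and 1 without CD201-only replicate 2, without the filter or after median-ratio rescaling. The peak count was 3 without either CD201-only library or double-positive replicate 1.

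The promoters of ANKRD1 and SFN are shown because these genes lead the peaks of the YAP and p53 lists, and that of CXCL8 because it is the deepest trough. The TEAD letters GGAATG (both strands searched for each pattern here) stood in 9.64% of all, 11.9% of peak and 10.9% of trough promoters. The AP-1-like letters TGANTCA stood in 3.85%, 4.04% and 5.23%. This is a loose form of the AP-1 site, since N is any base. ANKRD1 holds the TEAD letters at -220 and -128 from the start and the AP-1-like letters at -195 (chr10:90921088-90921337, - strand). SFN holds the AP-1-like letters at -170 (chr1:26862899-26863148, + strand). CXCL8, a trough gene, holds them at -137 and the TATA box letters TATAAA at -31 (chr4:73740319-73740568, + strand). The middle base of the AP-1-like letters is T in ANKRD1 and SFN and C in CXCL8. Capitals mark these letters.
ANKRD1: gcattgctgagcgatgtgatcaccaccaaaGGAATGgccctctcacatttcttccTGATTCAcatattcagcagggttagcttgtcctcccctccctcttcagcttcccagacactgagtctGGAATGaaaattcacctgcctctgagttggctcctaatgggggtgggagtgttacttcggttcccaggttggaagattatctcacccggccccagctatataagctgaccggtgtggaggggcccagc
SFN: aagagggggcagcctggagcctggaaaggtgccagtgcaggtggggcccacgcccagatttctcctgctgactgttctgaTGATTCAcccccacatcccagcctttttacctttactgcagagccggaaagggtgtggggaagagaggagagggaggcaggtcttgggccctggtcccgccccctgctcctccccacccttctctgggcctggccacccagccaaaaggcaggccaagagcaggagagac
CXCL8: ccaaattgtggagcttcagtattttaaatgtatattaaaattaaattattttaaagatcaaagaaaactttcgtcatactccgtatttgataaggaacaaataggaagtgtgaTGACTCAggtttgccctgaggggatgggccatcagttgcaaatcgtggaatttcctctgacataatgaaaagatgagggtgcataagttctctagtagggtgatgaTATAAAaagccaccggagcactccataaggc
TATAAA stood in 5.04% of all promoters, 7.02% of peak and 8.86% of trough promoters.

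Of 26 immediate early genes 3 were at a trough and none at a peak, while the medians over the list were 0.25 from double-negative and -0.38 from double-positive cells. EGR1 was at 27.2 and 27 FPKM in CD201-only, 45.8 and 44.5 in double-negative and 75.9 and 70.6 in double-positive libraries. EGR2 was at 2.45 and 2.54 FPKM in CD201-only, 4.17 and 4.66 in double-negative and 7.72 and 8.71 in double-positive libraries. NR4A1 was at 8.38 and 7.97 FPKM in CD201-only, 11.6 and 11.2 in double-negative and 11.2 and 11.1 in double-positive libraries. DUSP6, a phosphatase that responds to ERK, was at 36 and 35.5 FPKM in CD201-only, 50.3 and 50.9 in double-negative and 57.2 and 60.4 in double-positive libraries. DUSP4, of the same family, was at 68.2 and 69.2 FPKM in CD201-only, 52.2 and 52 in double-negative and 48.5 and 50.7 in double-positive libraries. The pair moved in opposite directions. SOCS3, a brake on cytokine signalling, was at 46.1 and 45.6 FPKM in CD201-only, 31.4 and 31.1 in double-negative and 30.2 and 29.3 in double-positive libraries, a peak. Of 30 genes of handling stress 2 were at a peak, near the 5.19% over all genes, and 3 at a trough, above the 4.74%. EGR1 and NR4A1 are in both this list and the immediate early list.

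Metabolic and stress lists moved in parts. Of 21 NRF2 and oxidative stress genes 6 were at a trough and AKR1C1, whose near-identical paralogs may share its reads, at a peak. HMOX1, heme oxygenase, was at 17.1 and 15.3 FPKM in CD201-only, 29.6 and 32.5 in double-negative and 32.2 and 30.6 in double-positive libraries. NQO1 was at 109 and 113 FPKM in CD201-only, 145 and 149 in double-negative and 158 and 168 in double-positive libraries. TXNRD1 was at 92.3 and 90.6 FPKM in CD201-only, 116 and 117 in double-negative and 117 and 121 in double-positive libraries. The trough count was 3 without either double-negative library and without CD201-only replicate 2. Of 21 hypoxia genes 6 were at a trough, among them STC1 and ADM, and 2 at a peak. SLC2A1, the glucose transporter GLUT1, was one of these, at 184 and 183 FPKM in CD201-only, 131 and 132 in double-negative and 128 and 130.2 in double-positive libraries. TKT, of the pentose phosphate pathway, was at 1017 and 1004 FPKM in CD201-only, 864 and 853 in double-negative and 699.7 and 678 in double-positive libraries. No heat shock gene of 20 was called.

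Adhesion receptors and laminins gave 6 troughs (3 without the filter) and 1 peak of 22. LAMA4 was at 66.4 and 65.5 FPKM in CD201-only, 115 and 115 in double-negative and 91.2 and 90.8 in double-positive libraries. LAMB1 was at 153 and 149 FPKM in CD201-only, 195 and 197 in double-negative and 204 and 203 in double-positive libraries. Both laminin chains were lowest in CD201-only cells. LAMA5, a chain of epithelial basement membranes, was at 76.7 and 76 FPKM in CD201-only, 60.9 and 61.4 in double-negative and 43.3 and 41.2 in double-positive libraries. ITGA1, which binds collagen, was at 2.78 and 2.66 FPKM in CD201-only, 5.73 and 6.95 in double-negative and 4.43 and 4.62 in double-positive libraries. In the lysosomal list LIPA, an acid lipase, was at 6.47 and 7.02 FPKM in CD201-only, 16 and 15.3 in double-negative and 9.98 and 9.83 in double-positive libraries, with 3 troughs of 28 in all. That count was 1 without double-negative replicate 1 and 6 without either double-positive library. DES and ACTG2, both in the list of contractile genes, moved apart. DES was at 12.2 and 11.7 FPKM in CD201-only, 5.75 and 6.46 in double-negative and 8.14 and 8.02 in double-positive libraries. ACTG2 was at 38.2 and 37.8 FPKM in CD201-only, 120.5 and 118 in double-negative and 74.1 and 70.3 in double-positive libraries.

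The coagulation list to which CD201 belongs gave 2 peaks and 4 troughs of 18 (5.19% and 4.74% over all genes). F3, the tissue factor that starts clotting, was at 167 and 165 FPKM in CD201-only, 149 and 149 in double-negative and 115 and 112 in double-positive libraries. F2R, a thrombin receptor, was at 8.59 and 8.82 FPKM in CD201-only, 11.5 and 11.6 in double-negative and 31.8 and 33.2 in double-positive libraries. TFPI2, a protease inhibitor, was at 10.4 and 9.11 FPKM in CD201-only, 13 and 12.5 in double-negative and 41.8 and 41.6 in double-positive libraries. F2R was called in all 15 alternatives. F3 lost its call without any 1 of the 4 double-negative and CD201-only libraries (limma adjusted p from 0.0506 to 0.0702) and without the variance trend (0.0848), and the trough count was 2 without either double-negative library and 2 without the filter.

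Markers of endothelium and blood, tissues where CD201 and CD34 are known, were mixed. CD34 was at 49.7 and 50.4 FPKM in CD201-only, 13.9 and 13.6 in double-negative and 25.7 and 25.5 in double-positive libraries. CORO1A, an actin regulator of leukocytes, was at 27 and 28.3 FPKM in CD201-only, 20.2 and 20.4 in double-negative and 14.9 and 14 in double-positive libraries. TEK, an angiopoietin receptor, was at 24.6 and 26.4 FPKM in CD201-only, 13.5 and 13.9 in double-negative and 18 and 19.9 in double-positive libraries, a peak, while FLT1, CD14 and CD68 were troughs. Defining genes were low: CD3E was at 0 in all 6 libraries, PTPRC was at a mean of 0.837 in double-negative and 0.147 in CD201-only cells, PECAM1 reached at most 0.0677, CDH5 0.261 and VWF 1.0 FPKM, with VWF at means of 0.522 in CD201-only, 0.39 in double-negative and 0.949 in double-positive cells. The part of other cell types in the result was not tested. In the endothelial list 2 of 12 genes were at a peak and 1 at a trough, and in the blood list 2 of 8 at each. Over all genes the shares were 5.19% and 4.74%.

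Growth genes gave peaks and no troughs. Of 41 tested genes of S phase 3 were at a peak, a share near the 5.19% over all genes. Of 41 genes of G2 and M phase 6 were, and of 53 cytosolic ribosomal proteins 8, both larger shares than over all genes. By the rule alone 19 genes of S phase, 17 of G2 and M phase and 31 ribosomal genes lay above, against 16.7% of all genes. MCM7, part of the replicative helicase, was at 142 and 138 FPKM in CD201-only, 119 and 119 in double-negative and 88.3 and 86.4 in double-positive libraries. MKI67 was at 29.1 and 30.2 FPKM in CD201-only, 25.3 and 26 in double-negative and 18.1 and 18.2 in double-positive libraries. RPS3 was at 2100 and 2097 FPKM in CD201-only, 1935 and 1925 in double-negative and 1547 and 1556 in double-positive libraries. The double-positive cells were lowest in all 3, and the CD201-only cells stood off from double-negative cells by no more than 0.23. These counts depended on the scaling and on single libraries: after median-ratio rescaling the counts were 8 for S phase, 11 for G2 and M phase and 17 for the ribosomal proteins, and without the variance trend 2, 1 and 0. Quantile normalization left 3 ribosomal peaks. Without double-negative replicate 1, double-negative replicate 2 or CD201-only replicate 1 the G2 and M count was 1 and the ribosomal count 0, and without CD201-only replicate 2 both were 2. UHRF1, which maintains DNA methylation, was at 18.9 and 18.5 FPKM in CD201-only, 13.5 and 13.1 in double-negative and 11.9 and 11.4 in double-positive libraries, the single peak among 47 chromatin regulators, with 1 trough (RING1). None of 20 pluripotent-cell genes was called, and their medians were -0.47 and 0.82, beside a lower level of the vector genes POU5F1 and SOX2 in CD201-only and double-positive cells than in double-negative ones.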

How the data were processed

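The authors deposited 1 table of FPKM for 27788 genes in 6 libraries, made with STAR and Cuffnorm on hg19 (GRCh37) per the submitters' processing notes, which give no versions, and stranded poly-T libraries per the labels' protocols. Reads per library were not given in the sources used here, and Cuffnorm's library scaling stays in the values. From these, the 12210 genes averaging 1 FPKM or more were taken to log2(FPKM + 1), with a pseudocount of 1, and fitted with limma 3.58.1 in R 4.3.3 with a trend in the spread over all 3 groups, with 3 residual degrees of freedom and a prior of 3.95. Peaks and troughs took the larger one-sided p, adjusted by Benjamini-Hochberg under 0.05. The fit was first run on simulated data. Genes given no peak or trough were set midway between the outer groups there. The simulated noise was independent between libraries, so that run cannot speak to effects of a shared culture or sort. An exact permutation of 2 libraries against 4 cannot go below p = 0.0667 (one-sided), so single genes rest on the pooled spread. Figures and counts used Python 3.11.15, pandas 2.3.3, numpy 2.4.6 and matplotlib 3.10.9.

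The genes and the 49 lists were chosen with earlier results of these data known. Named genes were the 3 markers, the genes sorted on and the 4 factors, the 15 largest called peaks and 15 troughs at 5 FPKM or more, up to 4 in each direction from each list with at least 3 called genes, the families of SFN and CRIP1, and the genes nearest the rule's edge. Small RNA genes were counted and not named, and none was called. A few genes that these rules name are not reported here. Of the 49 lists, 48 had tested genes and 34 had at least 3 called; the 13 mitochondrially encoded genes were not found in the table. The replicate numbers were not used to pair the groups. Same-numbered deviations correlated weakly, at 0.0761, -0.0727 and 0.117, which cannot settle whether same-numbered libraries shared a culture or sort. Alternatives covered the pseudocount, the filter, rescaling, the trend, a replicate block and leaving out each library. Promoter letters were read from RefSeq's table of GRCh38.p14 and matched by symbol.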

Additional observations from a re-analysis of the deposited data

How the results depend on the processing

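Of the 161 named genes called at a peak or trough, 99 kept the call in every alternative that gave a value (15 in all). The other 62 lost it in at least 1. None turned to the other side, but a gene that fell between the groups was counted as lost. Median-ratio rescaling turned the balance of higher and lower genes in both comparisons. It gave 2430 higher and 2163 lower against double-negative cells, and 3228 and 3481 against double-positive cells. Leaving out 1 library leaves a lone sample assumed to vary like the other groups, and gave 313 to 596 peaks (364 and 344 without double-negative replicates 1 and 2, 313 and 337 without CD201-only replicates 1 and 2) and 304 to 523 troughs (304, 319, 342 and 352 likewise). For CD201-only minus double-negative the higher genes then ran from 1323 (without double-negative replicate 1) to 2094 and the lower from 1565 (without double-negative replicate 1; 1626 without replicate 2) to 2809. Without the filter on low values the troughs numbered 348, and at a mean of 5 FPKM the genes below by the rule 1160. At least 2-fold peaks numbered 43 with a pseudocount of 0.1 and 3 with 5, and 2-fold troughs 88 and 8, as the pseudocount sets the fold of low genes. A replicate block gave 599 peaks (569 shared) and 555 troughs (520 shared). The deviations of same-numbered libraries correlated at 0.0761, -0.0727 and 0.117, which does not settle whether the numbers pair the samples. Rescaling by median ratios moved the medians over all genes from -0.0364 and 0.0772 to -0.00213 and 0.00445, so changes of about that size, as in the ribosomal and G2 and M phase lists, are relative to the scaling. Low genes varied most between replicates, for which depth was not tested: the median coefficient of variation was 5.21 to 6.28% at 1 to 10 FPKM and 0.967 to 1.97% above 100.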

Other observations

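H19, an imprinted noncoding RNA of growth control, was chosen after its values were seen. It was called at a peak, averaging 4459 FPKM in CD201-only, 1563 in double-negative and 2243 in double-positive cells. Its neighbour TH is described above, and LSP1 and TNNT3, which also lie close to it in RefSeq's gene order, were called at a peak, with LSP1 at 16.8, 3.38 and 13.6 FPKM and TNNT3 at 14, 3.38 and 9.55 in the same order of groups. The growth factor gene IGF2, beside H19, did not follow: it was at 457, 189.4 and 549.6 FPKM, highest in double-positive cells and not called. MRPL23, on the other side of H19, was not called either. Of the 18 imprinted genes tested, H19 was at a peak and SNURF at a trough.

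Peak and trough genes were spread over the chromosomes. The peak share was highest on chromosome 22 at 9.49% of its tested genes, and the trough share on chromosomes 18 (8.54%), 5 (8.24%) and 4 (8.15%), with the lowest trough share, 1.73%, on chromosome 16. Protein-coding genes made up 94.6% of the genes matched to RefSeq, 96.5% of the peak and 97.9% of the trough genes, and long noncoding RNAs 3.53%, 2.54% and 1.9%. Promoters of peak genes had a median GC content of 67.2%, those of trough genes 64.8% and all promoters 65.2%.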
